A study of Homo sapiens with 12 samples.

Results

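The interferon-stimulated genes are the set of transcripts that a cell turns on when type I or type III interferon binds its receptor. In this pathway a viral or synthetic RNA is sensed in the cytoplasm by RIG-I or MDA5, interferon is secreted, and the receptor-bound kinases JAK1 and TYK2 activate transcription factors of the STAT family. Together with IRF9 these form the ISGF3 complex, which binds the interferon-stimulated response element (ISRE) in the promoters of the induced genes. Short double-stranded RNAs used for knockdown can engage the same sensors, so the induced genes are a usual readout of an siRNA that does more than deplete its target. A list of 39 such genes was followed over 12 dual-color Agilent arrays. Of these, 38 were found on the array through the RefSeq accession of their probes, by 52 probes with 1 to 3 probes per gene, among 17240 genes named in this way. IFI27 was not matched and has no expression value here.

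The arrays carried RNA of 2 human cell lines. Ls174T is a colorectal cancer line, and HEK293T is an embryonic kidney line that carries the SV40 large T antigen. On 4 Ls174T arrays the RNA came from cells given a non-targeting siRNA pool (si-control) or pools against MLLT10 (which encodes AF10, a partner of DOT1L), BRG1 (the ATPase of the SWI/SNF complex, gene SMARCA4), or p300 (a histone acetyltransferase, gene EP300), and each was compared with a universal human reference RNA in the other dye. On 6 HEK293T arrays the cells had received si-control with control medium (CM) or, with Wnt3A medium, si-control, si-MLLT10, si-DOT1L, si-BRG1, or si-P300, again against reference RNA. A dye-exchanged pair of Ls174T arrays compared si-β-catenin directly with si-control, and was counted as 1 replicate. All cells received 15 nM siRNA for 72 h, and the HEK293T medium was given for 9 h. Every other group was 1 array, so no difference below has a replicate check or a p value, and the errors given are those that the scanner program assigned to each spot, which leave out the spread between cultures. Because si-control is itself an siRNA and no array carried untransfected cells, a response shared by every siRNA pool would cancel in these comparisons.

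Signal differed between arrays. The median ratio of sample signal to local background ran from 1.66 to 3.47, and 27 to 38 of the members were well-measured on an array, meaning that the median signal was over 2-fold the local background in at least 1 channel. The Ls174T si-control and si-MLLT10 arrays shared a slide with signal ratios of 2.26 and 2.29, and the si-BRG1 and si-P300 arrays shared another at 3.47 and 3.24. In HEK293T the CM, si-MLLT10, and si-DOT1L arrays shared a slide, the si-BRG1 and si-P300 arrays lay on the slide of the Ls174T si-control and si-MLLT10 arrays, and no other array of the study lay on the slide of the Wnt3A control. Slide and siRNA therefore cannot be told apart wherever the control array lay elsewhere, and values within a slide are given beside those results. The target of each siRNA was lower on its array. The log2 change was -2.60 for CTNNB1, -1.42 and -1.76 for MLLT10 in Ls174T and HEK293T, -2.42 and -3.97 for SMARCA4, and -2.66 for EP300 in HEK293T. EP300 in Ls174T, at -0.96, did not reach 2-fold, and DOT1L, at -1.07, was the mean of 3 probes between -1.97 and 0.17. All 7 intestinal epithelial markers (CDX1, CDX2, VIL1, CDH17, EPCAM, LGALS4, GPA33) were above background in the sample channel of the 4 Ls174T reference arrays, and the kidney lineage markers PAX8, LHX1, and SALL1 were above it on all 6 HEK293T arrays.

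Basal levels came first. A gene's level was taken as the log2 ratio of the cell line's RNA to the reference RNA on 1 array, which compares arrays for 1 gene but not genes with each other. The sample channel was well above background on all 10 reference arrays for 28 members. For 26 of these every one of the 4 Ls174T arrays was higher than every one of the 6 HEK293T arrays, and for none of the 28 was it the other way round. Over all 11383 genes measured like this, 30.7% were higher in Ls174T without overlap and 28% were lower. The difference between the medians of the lines was 2.14 over the members and 0.03 over the other genes. Of the 28, PSMB8, an immunoproteasome subunit, differed most, with a median ratio of 0.20 in Ls174T and -5.16 in HEK293T. IRF7, the transcription factor that amplifies interferon production, had medians of 2.74 and -1.66, and ISG15, the ubiquitin-like modifier, had 2.19 and -1.91. USP18, the protease that removes ISG15 and dampens the receptor, overlapped between the lines at 2.02 and 1.90, as did MX2 at -3.34 and -4.23. The Ls174T si-control and si-MLLT10 arrays lay on 1 slide with the HEK293T si-BRG1 and si-P300 arrays. Within this slide both Ls174T arrays were higher than both HEK293T arrays for 26 of the 28 members and lower for 1, beside 40.9% and 39% of all such genes, and the difference between the lines was 1.73 over the members and 0.02 over the other genes. Culture and medium differed between the lines as well, and their part in this was not tested. Outside the 28, HERC5, the ligase that attaches ISG15, was the other way round. It was above background on all 6 HEK293T arrays, with ratios from 0.84 to 1.60, and on none of the 4 Ls174T arrays, so that it was at least 41.5-fold higher in HEK293T. OAS1, OASL, and TRIM22 were above background on at most 1 of the 6 HEK293T arrays, so their values there carry little information.

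**Figure D1:**
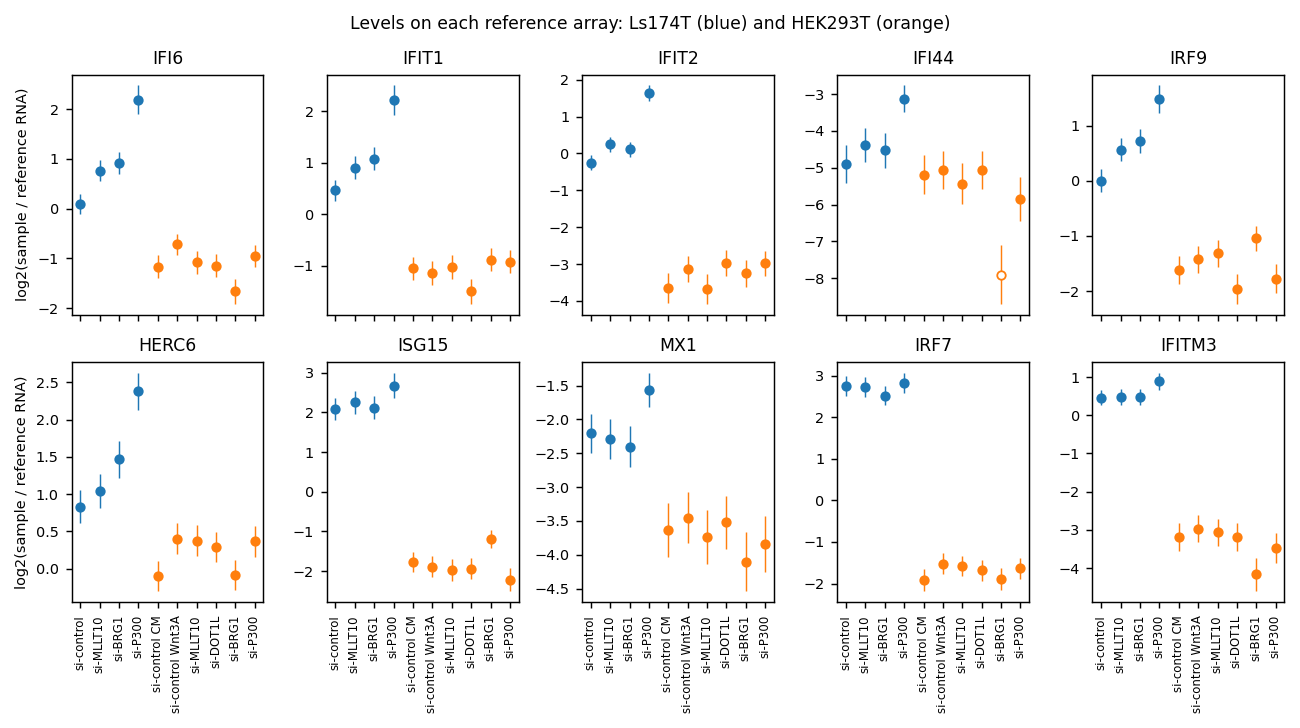
Level of 10 interferon-stimulated genes on each of the 10 reference arrays, as log2 of sample over reference RNA, with Ls174T in blue and HEK293T in orange; bars are the scanner program's error, and an open circle marks a sample channel not well above background. The Ls174T si-P300 array is the highest of the 4 Ls174T arrays in all 10 panels, and IRF7 (2.53 to 2.83) spans the least of the 10 on those arrays. A level averages the probes well-measured on its array, so for HERC6 the levels do not differ by the change given in the text.

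For each knockdown the change is the log2 ratio on its array minus that on the si-control array, and a gene was counted as past the fold at 2-fold in Ls174T and 1.5-fold in HEK293T. The plot of every member in every comparison gives the whole set.

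**Figure D2:**
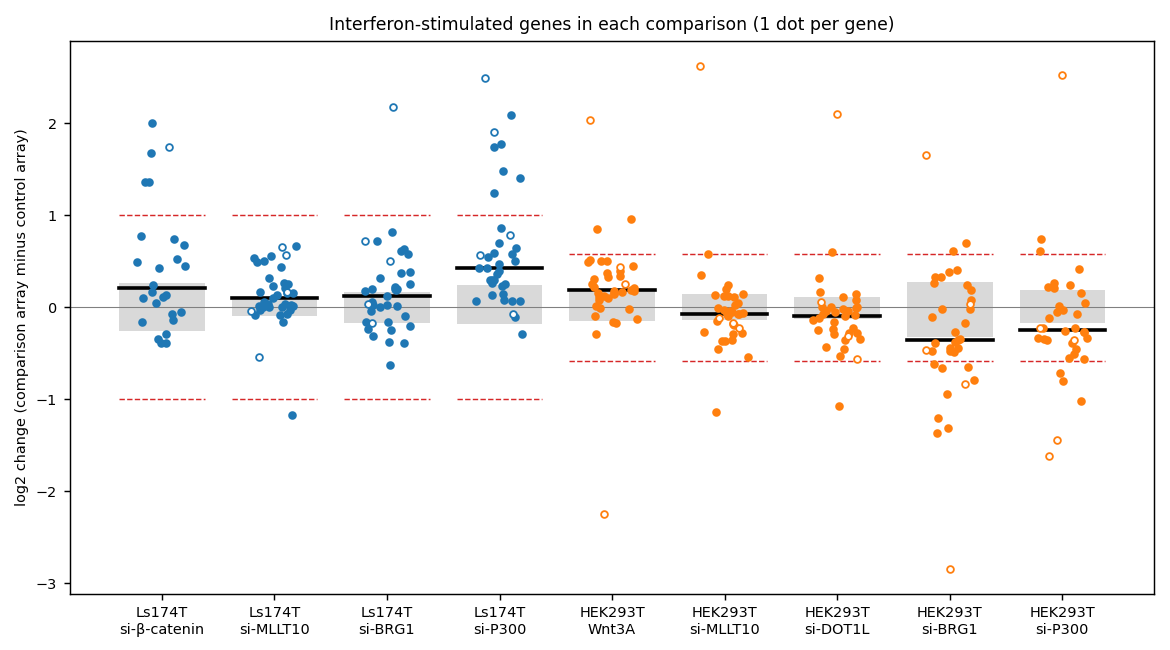
Log2 change of each well-measured interferon-stimulated gene in the 9 comparisons, 1 dot per gene, Ls174T in blue and HEK293T in orange; open dots mark genes whose sample channel was not well above background on at least 1 side. The black line is the members' median, the grey band the interquartile range of all other genes, and the dashed red lines the fold threshold. Ls174T si-P300 has the highest median, 0.43, and HEK293T si-BRG1 the lowest, -0.35.

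Depletion of p300 in Ls174T cells gave the highest members' median of the 9 comparisons. Of 37 well-measured members, 34 were above 0, with a median log2 change of 0.43 and an interquartile range from 0.23 to 0.79, against a median of 0.03 and an interquartile range from -0.18 to 0.24 for the 13377 other genes. The change exceeded the program error upwards in 25 members and downwards in 1, ISG20. The share of all genes beyond their program error was not counted, so this count has no background beside it. Past 2-fold, 8 members were higher and none lower, beside 3.72% of all genes higher and 1.65% lower. With the 32 members above background on both arrays alone, 6 were past 2-fold and higher, beside 1.06% of such genes.

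The members past 2-fold held several roles. IFI6, a small membrane protein of the endoplasmic reticulum and mitochondria, had log2 ratios to the reference of 0.10 with si-control, 0.76 with si-MLLT10, 0.91 with si-BRG1, and 2.19 with si-P300. The si-P300 array thus stood above the other Ls174T arrays, by 2.09 ± 0.35 (program error) or 4.26-fold against si-control. IFIT1, which binds viral RNA lacking a methylated cap, had ratios of 0.47, 0.90, 1.08, and 2.21 in the same order, and differed from si-control by 1.75 ± 0.36 with si-P300. IFIT2, its binding partner, read -0.26, 0.24, 0.11, and 1.63, a difference of 1.40 ± 0.31. For all 3 the si-control array was the lowest and the si-P300 array the highest of the 4.

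IRF9, the DNA-binding subunit of ISGF3, had ratios of -0.00024, 0.56, 0.72, and 1.48, with a difference of 1.48 ± 0.32 under si-P300. HERC6, a HECT-type ligase related to the ISG15 ligase HERC5, had levels of 0.83 on the si-control array and 2.38 on the si-P300 array. Each level averages the probes well-measured on that array, and these levels do not differ by the change. Over the spots well-measured on both arrays the change was 1.24 ± 0.35. IFI44, a cytoplasmic protein induced by interferon, was dim, with ratios of -4.90, -4.37, -4.52, and -3.12, and a difference of 1.78 ± 0.62. IFIT3 and IFI44L did not clear background on the si-control array, so they have only a bound, at least 2.24-fold higher for IFIT3 and at least 2.28-fold higher for IFI44L. When the signals were instead corrected by normexp, a model-based background correction, and loess, with local backgrounds that the program flagged as outliers replaced by the array median, 5 members were past 2-fold. The sign for IFI44L was not stable, since its change read -0.018 under this setting.

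Below the threshold the same side prevailed. MX1 (a GTPase that traps viral nucleocapsids) was higher by 0.64, STAT2 (a subunit of ISGF3) by 0.29, ISG15 by 0.58, and IFIH1 (the sensor MDA5) by 0.59, as was RIGI (the sensor RIG-I, outside the 39 listed genes) by 0.64. By contrast IRF7 read 0.07, OAS1 -0.10, and OASL 0.43. By role, the 6 membrane and entry restriction factors and the 5 sensors and transcription factors were all above 0, with medians of 0.41 and 0.29, while the 3 antigen processing genes had a median of 0.25.

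**Figure D3:**
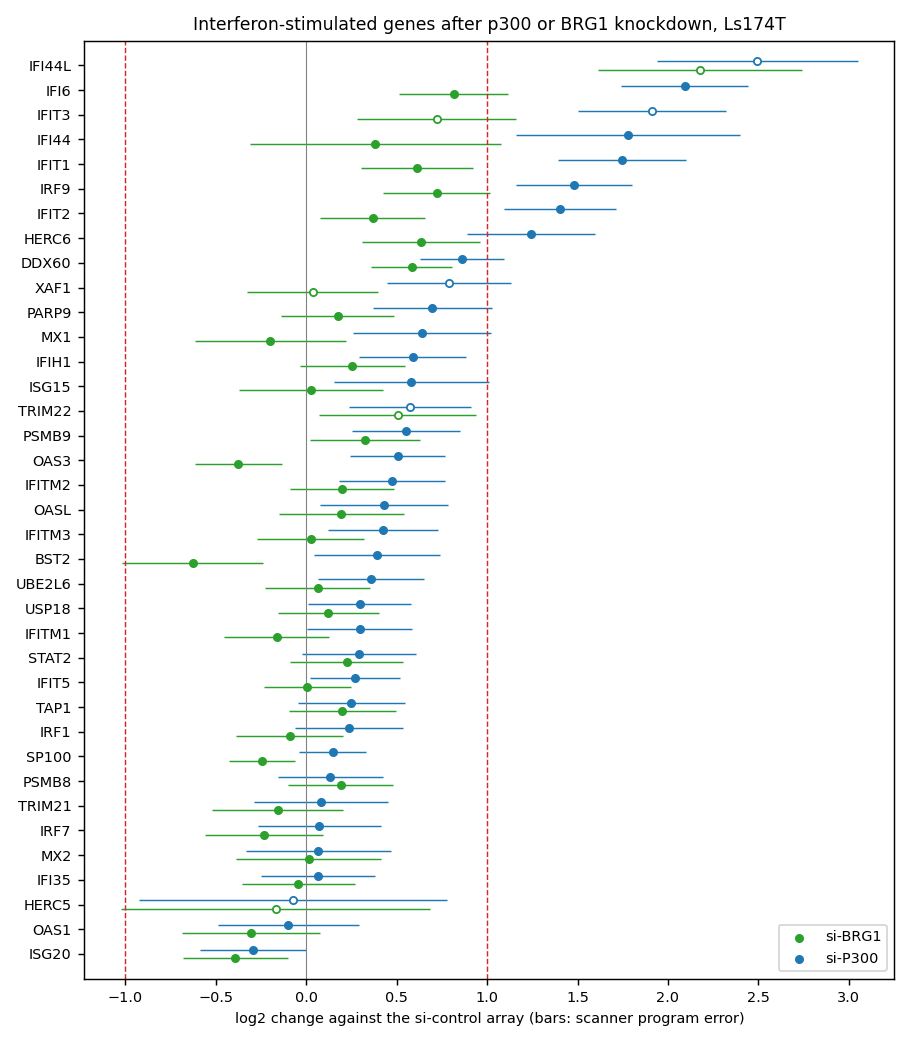
Log2 change of each member after p300 (blue) or BRG1 (green) knockdown in Ls174T against the same si-control array, with the program's error as bars, open circles where the sample signal of 1 or both arrays did not clear background, and the 2-fold threshold as dashed lines. The genes are ordered by their si-P300 value; 8 lie past 2-fold for si-P300 and 1, IFI44L, for si-BRG1.

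The si-control array lay on another slide, so the si-P300 array was also set against the si-BRG1 array of its own slide. Here 36 of 38 members were above 0, with a median of 0.31, and the other 13953 genes had a median of 0.02. Past 2-fold, 6 members were higher and none lower, beside 0.715% of all genes higher and 1.31% lower. These were IFI44 (1.40), IFI6 (1.28), IFIT3 (1.19), IFIT1 (1.13), IFIT2 (1.03), and BST2 (1.02), the membrane tether that holds budding virus at the cell surface. BST2 passed here because it was lower with si-BRG1, at -0.63 against si-control, and it read 0.39 with si-P300. IRF9 and HERC6 stayed above 0 within the slide, at 0.76 and 0.61.

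Promoters of the induced genes are where ISGF3 acts, so sequence was read for the members. The RefSeq table (GRCh38.p14) held the 250 bases before and 50 bases after the start of 31 of the 39 listed genes. The letters GAAA, any 2 bases, then GAAA (the ISRE core) were searched on both strands, and occurred in 21 of the 31, 67.7%, against 4.38% of 27305 genes with a promoter in the table. The letters TTCNNNGAA (the GAS element), on both strands, occurred in 11 of the 31, 35.5%, against 9.38%. The 31 include IFI27, and without it the counts were 20 and 10 of 30. For a gene with several start sites the window with most matches was counted. Of the members past 2-fold with si-P300 in Ls174T, 7 had a promoter in the table and 5 held the ISRE core, beside 15 of 23 other measured members. Shown are the 250 bases before the start for 3 members past 2-fold with si-P300, and for ISG20, the member lowest there, with the ISRE core in capitals except in IRF9, which has none in its window and whose GAS letters are in capitals.
IFI6, chr1:27672193-27672442, minus strand: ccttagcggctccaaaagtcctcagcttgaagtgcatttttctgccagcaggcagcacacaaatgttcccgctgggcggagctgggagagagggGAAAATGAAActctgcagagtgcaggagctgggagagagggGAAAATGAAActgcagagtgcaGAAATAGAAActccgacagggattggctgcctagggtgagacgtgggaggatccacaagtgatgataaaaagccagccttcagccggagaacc
IFIT1, chr10:89392373-89392622, plus strand: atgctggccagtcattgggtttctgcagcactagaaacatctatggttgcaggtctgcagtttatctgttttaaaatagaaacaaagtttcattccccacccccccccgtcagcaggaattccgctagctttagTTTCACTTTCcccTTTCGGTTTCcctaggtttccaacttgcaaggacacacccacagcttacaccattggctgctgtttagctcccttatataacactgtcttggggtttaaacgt
IRF9, chr14:24161015-24161264, plus strand: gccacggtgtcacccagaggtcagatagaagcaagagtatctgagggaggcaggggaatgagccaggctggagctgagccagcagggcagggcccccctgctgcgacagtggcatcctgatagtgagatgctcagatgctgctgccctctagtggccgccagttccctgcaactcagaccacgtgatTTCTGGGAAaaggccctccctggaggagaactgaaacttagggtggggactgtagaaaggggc
ISG20, chr15:88638766-88639015, plus strand: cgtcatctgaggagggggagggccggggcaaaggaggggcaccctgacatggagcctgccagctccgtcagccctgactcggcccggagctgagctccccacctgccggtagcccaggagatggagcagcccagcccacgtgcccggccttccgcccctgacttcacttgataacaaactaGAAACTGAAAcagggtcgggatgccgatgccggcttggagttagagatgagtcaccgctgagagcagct
IFI6 held 3 matches to the ISRE core, IFIT1 held 2, and ISG20 held 1. A match here is a description of letters, and no array measured binding.

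Other genes of the pathway were taken from a list of 94 interferon ligands, receptors, sensors, negative regulators, chemokines, MHC class I and immunoproteasome genes, and further induced genes. With si-P300 in Ls174T, 74 were measured, 10 were past 2-fold and higher, and none lower. CCL5 and CCL20 were above background on neither array. The other 8 had at least 1 array above background. Among them, APOL1 (a lipid-binding protein of innate immunity) was higher by 2.04 ± 0.29 with its probes at 1.22 and 2.86, SAMD9 (an antiviral factor) by 2.52 ± 0.27, SP110 (a nuclear body protein) by 1.46 ± 0.31, and RTP4 by 1.11 ± 0.52. SAMD9L was at least 2.18-fold higher, while the bounds for CCL2 and GBP1 were only 1.06-fold and 1.02-fold. No negative regulator among 11 measured, and none of 13 measured MHC class I and immunoproteasome genes, was past 2-fold. Of 9 interferon ligands listed, none was well-measured in a Ls174T comparison against si-control, IFNB1 among them. Type III ligands were above background on the other slide, IFNL1 with ratios of 1.05 on the si-BRG1 and 0.84 on the si-P300 array and IFNL2 with 0.52 and 0.41. Neither differed between those arrays by more than its error, at -0.21 ± 0.36 and -0.12 ± 0.30. The type I ligand IFNE was above background on the si-BRG1 array alone of the Ls174T arrays, with a ratio of 0.29. In HEK293T, IFNL2 was above background on the CM, si-control Wnt3A, si-MLLT10, and si-DOT1L arrays, with ratios from 0.34 to 0.49. CXCL10, the chemokine most often used as a readout, was not well-measured in any of the 9 comparisons. Of 6 leukocyte markers, 2 were above background on the si-control array and 4 on the si-P300 array, and their part in the result was not tested. CD14 differed by -0.03 between those arrays. PTPRC, the common leukocyte antigen, and CD3E were above background on both arrays of the brighter slide, si-BRG1 and si-P300, and on neither array of the other. The 7 intestinal markers had a median change of -0.65 with si-P300, all below 0, with CDH17 past 2-fold and lower at -1.68. Against the si-BRG1 array of the same slide their median was -0.22, and the part of this in the members' values was not tested.

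With BRG1 depletion in Ls174T 1 member was past 2-fold. The median over 37 members was 0.12, against -0.01 for the other genes, 25 were above 0, and only IFI44L was past 2-fold, as a bound of at least 1.75-fold higher, beside 3.41% of all genes higher and 1.25% lower. Its sign turned to -0.17 under normexp with replaced backgrounds. The count of members past 2-fold and higher was 5 under normexp with loess, 2 from the sample channel alone, and 0 with replaced backgrounds or where the sample channel had to be above background on every array. Next came IFI6 at 0.82 ± 0.30, IRF9 at 0.72, HERC6 at 0.64, and IFIT1 at 0.61, while MX1 read -0.20 and OAS1 -0.31. IFIT3 read 0.72, but it was not above background on the si-control array and had no bound. The pathway list gave 5 genes higher and 1 lower of 72 measured. Among these were CCL2, CCL5, CCL20, and GBP1, all 4 not well above background on the si-control array, CCL2 with a bound of 1.09-fold and the others with no bound, RTP4 at 1.01, and the DNA sensor IFI16 at -1.07 with its probes at -1.85 and -0.30.

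MLLT10/AF10 depletion in Ls174T, on the same slide as its control, left 27 of 37 members within their program error, with 8 beyond it upwards and 2 downwards. Here too, the share of all genes beyond their error was not counted. The median of 37 members was 0.11, and that of the other genes was -0.01 with an interquartile range from -0.09 to 0.08. Of the members 27 were above 0, 73.0%, against 47.6% of the other genes. None was past 2-fold and higher, and MX2, a nuclear envelope GTPase, was lower at -1.18, beside 0.645% of all genes higher and 0.743% lower. The 2 MX2 probes disagreed, at -2.15 and -0.20, and MX2 was not past 2-fold when its brightest probe was taken alone. The highest members above background on both arrays were IFI6 at 0.67 ± 0.30, IRF9 at 0.56, IFI44 at 0.53, and IFIT2 at 0.50. IFIT1 read 0.44 ± 0.30, ISG15 0.16, and MX1 -0.08.

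With β-catenin depletion another group of members was past 2-fold. Because the RNA of si-β-catenin and si-control cells was hybridised together on a dye-exchanged pair, the change is a direct ratio and the program error is smaller. Of 26 members measured on both arrays, 23 lay on the same side of 0 on both, 17 above and 6 below, and the arrays of the pair differed by a median of 0.16 and at most 0.67. The median was 0.21, against -0.01 for the other 9413 genes. Past 2-fold, 5 members were higher and none lower, beside 4.58% of all genes higher and 1.21% lower, and all 5 belong to the effectors that bind or degrade viral RNA. Under normexp with loess 2 members were higher, with or without replaced backgrounds.

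OASL, a relative of the 2′-5′-oligoadenylate synthetases, read 1.74 and 2.27 on the arrays of the pair, a mean of 2.01 ± 0.20. OAS1, which makes 2′-5′-oligoadenylates, read 1.52 and 1.97, a mean of 1.74 ± 0.16. Its si-control channel was not well above background on 1 of the arrays. The floor used for bounds lay below its signal, so no bound could be set and the mean is the measured ratio. ISG20, an exonuclease of single-stranded RNA, read 1.46 and 1.89, a mean of 1.68 ± 0.18. IFIT2 read 1.32 and 1.40 with a mean of 1.36 ± 0.19, and DDX60, a helicase that assists RIG-I, read 1.69 and 1.02. The other measured members of this role were on the other side of 0, IFIT1 at -0.38 ± 0.15, IFIT5 at -0.14, and OAS3 at -0.07. ISG15 read 0.68, IRF9 0.74, BST2 0.77, IRF7 -0.29, and USP18 -0.39, and RIGI, outside the list, read 0.62. IFIT3, MX1, MX2, IFI44, and IFI44L were among the 13 listed genes not measured on both arrays.

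**Figure D4:**
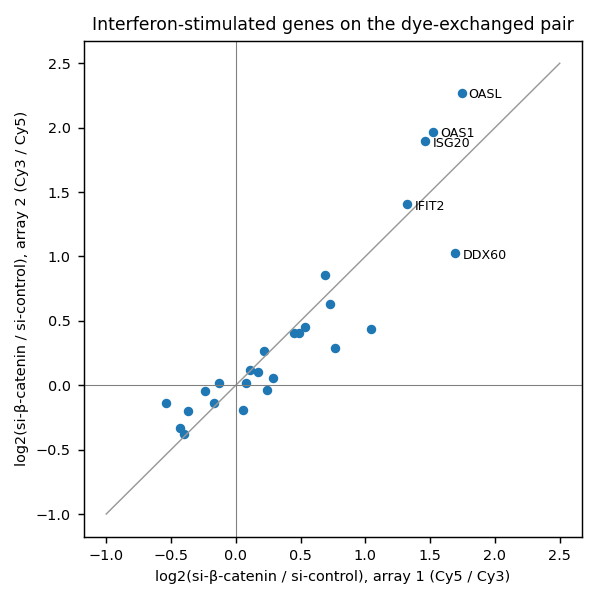
Log2 ratio of si-β-catenin over si-control for the 26 members measured on both arrays of the dye-exchanged pair, array 1 on the horizontal axis and array 2 on the vertical axis, with the line of equality in grey. The 5 labelled genes are past 2-fold in the mean of the pair, and 23 of the 26 lie on the same side of 0 on both arrays.

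Of the 94 pathway genes, 53 were measured in this comparison, 2 were higher, and none lower. These were APOL6 at 1.61 and the guanylate-binding protein GBP3 at 1.55. The pair of RNAs also differed in intestinal markers, 3 of 6 measured being past 2-fold and higher, LGALS4 at 3.29, CDH17 at 2.08, and GPA33 at 1.02. The part of this in the members' values was not tested. The groups of members past 2-fold with si-β-catenin and with si-P300 shared IFIT2. In the si-P300 comparison OASL read 0.43, OAS1 -0.10, and ISG20 -0.29, and in the si-β-catenin comparison IFI6 read -0.15 and IFIT1 -0.38. The si-control RNA of the pair was on other arrays than the si-control array used for p300, and the difference between these comparisons was not tested.

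In HEK293T cells Wnt3A medium was first compared with control medium under si-control. Of 38 members 30 were above 0, with a median of 0.19 against 0.01 for the 13700 other genes. Past 1.5-fold, 3 members were higher and 1 lower, beside 3.79% of all genes higher and 1.86% lower. MX2 had ratios of -4.14 in CM and -3.19 in Wnt3A medium, higher by 0.96 ± 0.43 with both probes on the same side (0.91 and 1.00). IFI44L had ratios of -2.68 and -1.83, higher by 0.85 ± 0.43. OAS1 was not well above background on either array, so no fold is given. IFIT3 was above background in CM and not in Wnt3A medium, at least 1.77-fold lower. Within their errors lay IFIT1 at -0.09 ± 0.32, ISG15 at -0.12 ± 0.37, MX1 at 0.18 ± 0.55, and IFIT2 at 0.51 ± 0.54, while IRF7 read 0.40 ± 0.37. The direction of the median depended on the background correction, since normexp with loess gave -0.78, against -0.13 for the other genes. Under that setting 22 members were lower and none higher, and the share of all genes past the fold was not counted. The same correction with spoiled local backgrounds replaced gave a median above 0. IFIT3 turned to 0.14 with the replaced backgrounds. Of the pathway list 10 of 73 measured were higher and none lower, and 7 of these had at least 1 array above background. They included APOL1 at 1.43 ± 0.36, and the guanylate-binding proteins GBP2 at 1.79 ± 0.54 and GBP1 at 0.94 ± 0.35. The others were the RIG-I-like receptor DHX58 at 0.83, DTX3L at 0.64, and the endosomal RNA sensor TLR3, at least 1.28-fold higher. The chemokine CCL2, at 0.64 ± 0.81, was within its error.

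The si-control Wnt3A array is the control for all 4 HEK293T knockdowns, so what is high or low on it appears in each of them with the sign turned. Against this array the members' median was -0.07 with si-MLLT10, -0.09 with si-DOT1L, -0.35 with si-BRG1, and -0.24 with si-P300, while the other genes had medians from -0.01 to 0.02. Against the si-control CM array, which differs from the knockdown arrays in medium as well, the medians were 0.11, 0.09, 0.0032, and -0.00091. For si-MLLT10 and si-DOT1L the CM array lay on the same slide. The negative medians were therefore not seen against the other control array. MX2 was past 1.5-fold and lower in all 4 knockdowns, from -1.31 to -1.02, and read from -0.35 to -0.07 against CM. IFIT3 was past 1.5-fold and higher in all 4, with the Wnt3A array below background each time and the si-BRG1 array as well, and read from -0.58 to 0.38 against CM.

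**Figure D5:**
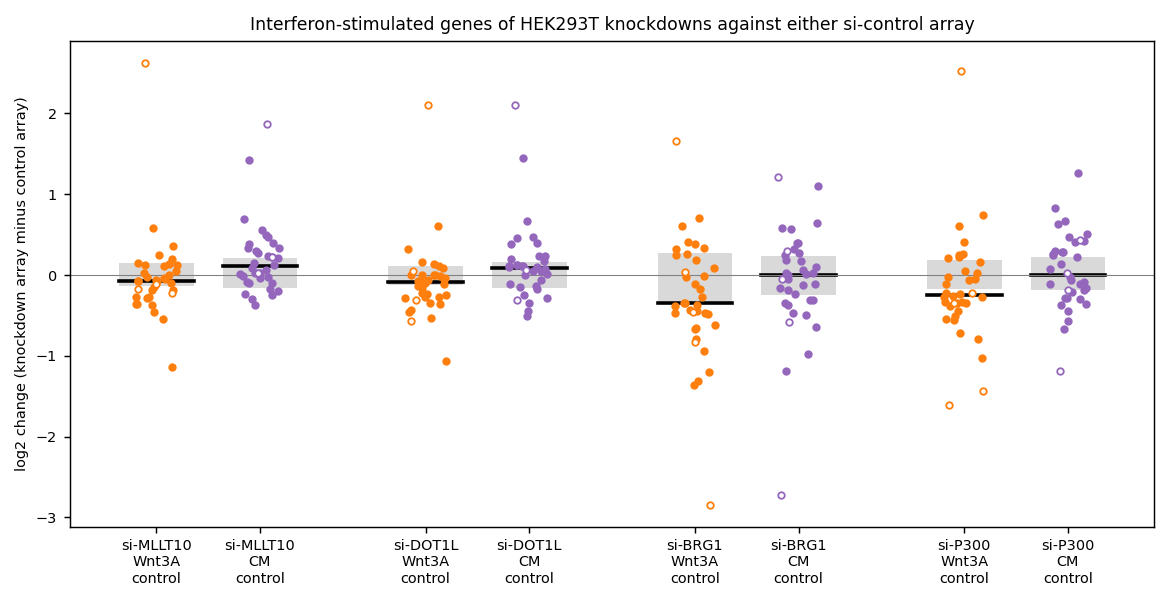
Log2 change of each member in the 4 HEK293T knockdowns, against the si-control Wnt3A array (orange) or the si-control CM array (purple), 1 dot per gene, with open dots where 1 or both arrays were not well above background, the members' median as a black line, and the interquartile range of the other genes as a grey band. The median is below 0 against the Wnt3A array in all 4 knockdowns and between -0.00091 and 0.11 against the CM array.

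With si-MLLT10 and si-DOT1L few members passed. For si-MLLT10, IFIT3 was higher and MX2 lower of 36, beside 2.44% of all genes higher and 3.42% lower. For si-DOT1L, IFIT3 and IFI44L (0.61) were higher and MX2 lower of 36, beside 1.56% and 3.33%. The bounds for IFIT3 were at least 2.18-fold and at least 1.59-fold higher, both set by the Wnt3A array. Against CM, IFI44L was at 1.43 and 1.45 on these arrays, and IFIT1 read 0.03 and -0.44. The sentinels ISG15, MX1, and IRF7 lay between -0.29 and -0.04 in both knockdowns against the Wnt3A array.

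With si-BRG1, 3 members were higher and 10 lower of 37 past 1.5-fold, beside 8.09% of all genes higher and 12.7% lower. The median turned to 0.60 under normexp with loess, against 0.08 for the other genes, and stayed below 0 with the spoiled backgrounds replaced. The membrane restriction factors made up much of the lower group, 5 of 6 in that role, with a median of -0.997. IFITM3, which blocks fusion of incoming virus with endosomes, had ratios of -3.19 with CM, -2.97 with Wnt3A, -3.06 with si-MLLT10, -3.19 with si-DOT1L, -4.17 with si-BRG1, and -3.47 with si-P300. The si-BRG1 array was the lowest of the 6, by 1.20 ± 0.56 against the Wnt3A array. IFITM2 and IFITM1 read -1.37 ± 0.49 and -0.79 ± 0.48. Against the CM array they stayed lower, at -0.98 for IFITM3, -1.19 for IFITM2, and -0.64 for IFITM1. The 3 IFITM genes are near-identical copies that lie side by side, and probes may not keep them apart, so they are not independent.

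IFI44 was not above background on the si-BRG1 array alone among the HEK293T arrays, at least 2.33-fold lower than with Wnt3A and at least 2.57-fold lower than with CM. IFI6 was lower by 0.95 ± 0.33 against Wnt3A and at -0.50 against CM, and MX1 at -0.65 and -0.47. IFI44L (-0.66) and OAS1 (not above background on either array) did not stay lower against CM. For SP100, a nuclear body protein, the 3 probes ran from -2.29 to 0.21 and the sign turned with the brightest probe. ISG15 was higher at 0.70 ± 0.35, and at 0.58 against CM, and the immunoproteasome subunit PSMB9 at 0.61 ± 0.50 and 1.097 against CM. The pathway list had 2 genes higher and 19 lower of 70 measured against Wnt3A, and 2 and 8 against CM, where 6.12% of all genes were higher and 7.84% lower.

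With si-P300 in HEK293T, 3 members were higher and 5 lower of 36, beside 3.35% of all genes higher and 7.23% lower. Of the 5, OAS1 and OASL were above background on neither array. MX2 read -1.02 ± 0.43, IFI44 -0.80 ± 0.79, and PSMB8 -0.71 ± 0.79, and against CM they read -0.07, -0.67, and -0.57. IFIH1 had ratios of -2.11 with CM, -2.03 with Wnt3A, -1.88 with si-MLLT10, -2.03 with si-DOT1L, -1.84 with si-BRG1, and -1.28 with si-P300, so that the si-P300 array was the highest of the 6, by 0.75 ± 0.36. OAS3, the largest of the oligoadenylate synthetases, was higher by 0.61 ± 0.28, with its probes at 0.27 and 0.95. Both remained higher against CM, at 0.83 and 0.63. Against the si-BRG1 array of the same slide the median was 0.25, with 8 members higher and 6 lower, beside 10% of all genes higher and 8.26% lower.

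Pathway genes that were high on the Wnt3A control array recurred on the lower side of the knockdowns. APOL1 was lower in all 4, from -1.79 to -1.01. GBP2 read -1.27, -1.26, and -1.17 with si-MLLT10, si-DOT1L, and si-P300 and was at least 3.47-fold lower with si-BRG1. CCL2 ran from -1.31 to -0.73, with program errors from 0.81 to 0.86, and lay within its error with si-MLLT10 and si-DOT1L. Against CM, APOL1 read from -0.36 to 0.42. With si-BRG1, CCL2 stayed below 0 against CM, at -0.66 ± 0.90, and GBP2 was at least 1.06-fold lower. With si-P300, GBP2 read 0.62 ± 0.59 against CM. Against the Wnt3A array, GBP1 at -0.89 and APOL6 at -0.78 were also lower with si-MLLT10, and DHX58 at -0.62 with si-DOT1L. The APOL6 probes lay on opposite sides of 0, at -1.62 and 0.06. With si-BRG1 the lower group held the immunoproteasome activator PSME1 at -1.19 and the DNA sensing adaptor STING1 at -1.09, which stayed at -1.11 and -0.77 against CM. It also held PTPN6 at -1.16, IFI16 at -0.93, GBP1 at -1.31, PIAS3 at -0.71, LGALS3BP at -0.61, and RNF125 at -0.59, while JAK2 was higher at 0.62 and TAP2 at 0.67. With si-P300 the lower group held the receptor inhibitor SOCS3 at -1.12, PTPN6 at -0.75, and IFI16 at -0.61, and the retroviral restriction factor TRIM5 was higher at 0.72 and TAP2 at 0.74. TRIM5 and SOCS3 read 0.82 and -0.69 against CM. TLR3 was at least 1.26-fold lower with si-BRG1 and at least 1.15-fold lower with si-P300, and had no bound with si-MLLT10.

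The p300 knockdowns of the lines were set side by side for the genes past the threshold in Ls174T. In HEK293T IFI6 read -0.23, IFIT1 0.22, IFIT2 0.16, IRF9 -0.35, HERC6 -0.03, and IFI44 -0.80 against Wnt3A. On the CM array as control they read 0.22, 0.13, 0.67, -0.16, 0.47, and -0.67. IFIT3 was higher in both lines, in HEK293T by at least 2.42-fold against the Wnt3A array and by 0.28 against CM. Among the pathway genes 3 were past the threshold and higher in both lines, namely SP110 at 1.46 and 1.02, SAMD9 at 2.52 and 0.66, and SAMD9L with bounds of at least 2.18-fold and 2.04-fold. Against CM in HEK293T, SP110 read 1.58 and SAMD9 0.90, and SAMD9L was at least 1.76-fold higher. APOL1 was at 2.04 in Ls174T and -1.20 in HEK293T, and at 0.23 there against CM. The difference between the lines was not tested, since each value rests on 1 array and the thresholds differ.

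Across the knockdowns the sentinel genes did not move as 1 block. IFIT1 was past the threshold in 1 of the 8 knockdowns, si-P300 in Ls174T, and ran from -0.38 to 0.61 in the other 7. IFIT2 was past it with si-β-catenin (1.36) and with si-P300 in Ls174T (1.40). OAS1 (1.74) and OASL (2.01) were past it and higher with si-β-catenin. In HEK293T both were past it and lower with si-P300, and OAS1 with si-BRG1, with neither array above background. IFIT3 was past it and higher with si-P300 in Ls174T and in every HEK293T knockdown, where the Wnt3A array was below background. ISG15 ran from -0.33 to 0.70 and was past the threshold only with si-BRG1 in HEK293T, MX1 ran from -0.65 to 0.64 in the 7 knockdowns where it was measured and was past the threshold only with si-BRG1 in HEK293T, where it was lower, and IRF7 ran from -0.38 to 0.07 and was past it in none. RIGI ran from -0.38 to 0.64 and was past its threshold in none against si-control in Ls174T or the Wnt3A array in HEK293T, but against the CM array of the same slide it was lower by more than 1.5-fold, at -0.69 with si-MLLT10 and -0.59 with si-DOT1L. Since the reagent used for each array was either siLentFect or INTERFERin and is not given per array, its part in these values was not tested.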

How the data were processed

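RNA of siRNA-treated Ls174T and HEK293T cells was measured on 12 dual-color Agilent arrays. The deposited scanner files hold, per spot, linear intensities, and the log10 ratio of Cy5 over Cy3 with its error, which the authors made with Agilent Feature Extraction (10.5.1.1 per the file headers, 8.5.1.1 per the submitters' processing notes) by background subtraction and dye normalization within each array. The values were not scaled further. Log10 ratios were converted to log2, turned to sample over reference (or si-β-catenin over si-control), and averaged over spots, probes, and genes after control and outlier-flagged features were left out. A spot was kept if its median signal exceeded 2-fold its local background median in either channel on every array compared. Of 29084 features with a RefSeq accession, 27612 (94.9%) were matched to 17240 genes. The series value table differed from the scanner ratios by at most 4.69e-06 (log10), 1 column of it being turned.

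The change was the log2 ratio of a knockdown array less that of its control, with 2-fold (Ls174T) or 1.5-fold (HEK293T) as the threshold. Errors combine the program's errors. With 1 array per group no test was run. Where the sample channel of 1 side was not well above background, a bound is given, from per-channel values after Aquantile normalization with a floor at the lowest signal among probes well above background. For OAS1 with si-β-catenin the floor lay below the signal, and the measured ratio is given. The number of arrays limits the precision. Alternatives were run with Python 3.11.15, R 4.3.3, and limma 3.58.1. The gene-level steps of the main setting were checked on simulated ratios, and the alternatives and bounds were not. The members, the pathway and marker lists, and the rule for naming genes were chosen with earlier results of these data known. Named were the siRNA targets, a list of sentinel genes, every member past the threshold, and pathway genes past it with at least 1 array above background. Results for some genes of these lists are not reported here. Transfection reagent was not given per array.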

Additional observations from a re-analysis of the deposited data

Results flagged for a closer look

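The direction of the members' median differed between the lines in 3 knockdowns, and none of these differences was tested, since each value rests on 1 array. With si-P300 the median was 0.43 in Ls174T and -0.24 in HEK293T, a difference of 0.67. With si-BRG1 the medians were 0.12 and -0.35, a difference of 0.48. With si-MLLT10 they were 0.11 and -0.07, a difference of 0.18. All 3 HEK293T medians come from the si-control Wnt3A array, and read -0.00091, 0.0032, and 0.11 against the CM array.

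Among single members, IFI44L with si-BRG1 read 2.18 in Ls174T and -0.66 in HEK293T, a difference of 2.84, and IFI44 with si-P300 read 1.78 and -0.80, a difference of 2.58. These differences were not tested either. IFI44L was not above background on the Ls174T si-control array, so its value there is only a bound of at least 1.75-fold. That value turned to -0.17 under normexp with replaced backgrounds, and the HEK293T value turned to 0.19 against CM. The program error of IFI44 with si-P300 in HEK293T was 0.79, as large as its change.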

How the results depend on the processing

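Values below are log2 medians of the interferon-stimulated genes or counts of them past the fold, and a value was taken as moved when a median changed by over 0.1, a count by over 1.5 times, or a single gene by over its program error. Of the medians and counts, 155 kept their value in this sense, 69 moved, and 4 changed direction. Of single-gene values 607 kept, 117 moved, and 23 changed direction. The cause was not tested for any of them. The share of all genes past the fold was counted for the other control arrays but not for the other settings, so counts in those have no background beside them. The medians for si-MLLT10 in Ls174T (0.080 to 0.14) and si-β-catenin (0.12 to 0.26) kept in every setting, including each array of the dye-exchanged pair alone. The Ls174T si-P300 median stayed above 0 in every setting, from 0.25 to 0.61.

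With normexp (offset 50) and loess, the Wnt3A median was -0.78, against -0.13 for the other genes, with 0 members higher and 22 lower. There OAS1 read -0.84, MX2 -1.71, and IFI44L -1.12. The HEK293T si-BRG1 median was then 0.60, against 0.08 for the other genes, with 21 higher and 2 lower. In that comparison OAS1 read 0.68, MX1 0.89, MX2 0.88, SP100 0.72, IFI44 1.93, and IFI44L 0.69. Counts became 2 higher for si-β-catenin, 0 lower for Ls174T si-MLLT10, 5 higher for Ls174T si-BRG1, 0 higher and 0 lower for HEK293T si-MLLT10, 0 higher and 2 lower for si-DOT1L, and 0 higher and 1 lower for HEK293T si-P300.

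With the same correction after spoiled local backgrounds were replaced, a setting chosen after seeing the data, the Ls174T si-P300 median was 0.25 with 5 higher, and IFI44L read -0.018 there and -0.17 with si-BRG1. IFIT3 read 0.14 for Wnt3A and -0.064 with si-BRG1 in HEK293T, where SP100 read 0.0018. Counts were 2 higher for si-β-catenin, 0 lower for Ls174T si-MLLT10, 0 higher for Ls174T si-BRG1, 0 lower for Wnt3A, 0 and 0 for HEK293T si-MLLT10, 0 higher and 2 lower for si-DOT1L, 1 higher for HEK293T si-BRG1, and 0 higher and 2 lower for HEK293T si-P300.

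From the sample channel alone, the medians were 0.27 (2 higher) for Ls174T si-BRG1, 0.61 for Ls174T si-P300, and -0.24 for HEK293T si-BRG1, with 2 lower for HEK293T si-MLLT10 and 1 higher and 2 lower for si-DOT1L. With the sample channel flagged above background on every array, SP100 read 0.21 with si-BRG1 in HEK293T, and counts were 0 lower for Ls174T si-MLLT10, 0 higher for Ls174T si-BRG1, 0 lower for Wnt3A, 0 higher for HEK293T si-MLLT10, 1 higher and 2 lower for si-DOT1L, and 3 lower for HEK293T si-P300. Without a filter they were 5 higher for Wnt3A, 2 higher and 3 lower for HEK293T si-MLLT10, 3 lower for si-DOT1L, and 8 lower for HEK293T si-P300. With the brightest probe alone SP100 read 0.21, with 0 lower for Ls174T si-MLLT10, 2 higher for Ls174T si-BRG1, and 2 lower for si-DOT1L. With the thresholds of the lines exchanged the counts were 8 higher for si-β-catenin, 2 higher for Ls174T si-MLLT10, 6 higher and 1 lower for Ls174T si-BRG1, 13 higher for Ls174T si-P300, 1 higher for Wnt3A, 1 higher for si-DOT1L, 1 higher and 4 lower for HEK293T si-BRG1, and 1 higher and 3 lower for HEK293T si-P300.

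With the CM array as control the medians were 0.11 for si-MLLT10 (3 higher, 0 lower), 0.086 for si-DOT1L (0 lower), 0.0032 for si-BRG1 (4 lower), and -0.00091 for si-P300 (2 lower), the last pair being added after seeing the data. Of all genes, 3.75% were higher and 2.77% lower with si-MLLT10, and 2.93% and 2.41% with si-DOT1L. The shares were 6.12% and 7.84% with si-BRG1, and 4.24% and 5.41% with si-P300. IFIT3 then read -0.14 with si-DOT1L and -0.58 with si-BRG1, OAS1 1.21 with si-BRG1 and 0.43 with si-P300, and IFI44L 0.19 with si-BRG1. With the si-BRG1 array as control the si-P300 median was 0.31 in Ls174T and 0.25 in HEK293T (8 higher), where MX2 read 0.29 and IFI44 2.04. No paired analysis was possible because each group held 1 replicate. Signal over background limits OAS1, OASL, TRIM22, and IFIT3 in HEK293T and IFI44L, IFIT3, HERC5, TRIM22, and XAF1 in Ls174T.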
